A study of Homo sapiens with 16 samples.

Results

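The data describe what dihydrotestosterone (DHT) still did to gene expression in LNCaP cells that were kept under the antiandrogen bicalutamide (BIC). The 4 libraries concerned, of 16 in the series, are BIC.DHT replicates 1 and 2 and BIC.VEH replicates 1 and 2. They were chosen by their labels, and BIC.DHT was compared with BIC.VEH within each replicate pair, which is given by a number in the library name. LNCaP is a human prostate cancer line that grows in response to androgen. Before a treatment of 48 h, all cells grew for 72 h in 5% fetal bovine serum and were then starved of androgen for 48 h in 5% charcoal-stripped serum.

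BIC.VEH received 10 µM bicalutamide with the solvent of the androgen, and BIC.DHT received 10 µM bicalutamide with 10 nM DHT. The response without antagonist was taken from VEH, which received both solvents, and DHT, which received 10 nM DHT with the solvent of the antagonists. The same 10 nM DHT and 10 µM were used for enzalutamide (ENZ.VEH, ENZ.DHT) and apalutamide (APA.VEH, APA.DHT). Each of the 8 groups had 2 libraries from 1 cell line. The labels number the replicates as biological but do not describe separate cultures further, so each p-value measures the spread between these libraries.

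Gene levels are in TPM (transcripts scaled to a fixed total per library), which keep no read depth. The 9 luminal prostate markers examined were above 1 TPM in all 16 libraries. Of 17 markers of other cell types, 11 stayed below 1 TPM in all 16, and CD3E was listed at 0 throughout. The summed TPM of those 17 markers ran from 30.04 to 31.1 in BIC.VEH and from 24.7 to 30.2 in BIC.DHT, most of it from COL1A1. The replicates of BIC.DHT correlated with r = 0.979 across genes and those of BIC.VEH with r = 0.982. Mitochondrial genes held 17.8% and 16.9% of the TPM in BIC.VEH replicates 1 and 2, and 20.6% and 17.0% in BIC.DHT, so that the shares differed most in pair 1. With mitochondrial genes left out and the rest rescaled, 0 genes were called between BIC.DHT and BIC.VEH, as with them, and the median differences of the G2/M and androgen-induced lists described below were 0.50 in place of 0.46 and 0.18 in place of 0.16. Because these are bulk libraries, fewer cells of a kind and less RNA per cell cannot be told apart.

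Androgen acts through androgen response elements in DNA and switches on genes of prostate secretion, lipid synthesis and growth, while other genes are repressed. Bicalutamide, enzalutamide and apalutamide are antiandrogens, which block this action. Genes needed for DNA synthesis and for mitosis are switched on in dividing cells by E2F factors and by complexes that read the cell cycle genes homology region (CHR), a short promoter element.

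Stretches of promoter are shown for the kallikrein genes KLK3 and KLK2, whose levels were among those that differed most between BIC.DHT and BIC.VEH, and for mitotic genes, whose list kept the largest share of its DHT response. Each is a run of 120 bases, 5′ to 3′, from RefSeq on GRCh38.p14. The runs of CENPA, CDC20 and MKI67 end at the transcript start, and those of KLK3 and KLK2 end farther upstream. In KLK3 and KLK2 the capitals mark the 15 bases at the place of the proximal androgen response element of KLK3, and in the other genes they mark the CHR-like hexamer.
KLK3, chr19:50854715-50854834, plus strand: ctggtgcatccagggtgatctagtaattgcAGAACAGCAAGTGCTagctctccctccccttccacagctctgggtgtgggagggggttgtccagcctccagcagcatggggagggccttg
KLK2, chr19:50873239-50873358, plus strand: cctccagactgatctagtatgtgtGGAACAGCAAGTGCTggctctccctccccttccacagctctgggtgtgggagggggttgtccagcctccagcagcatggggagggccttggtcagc
CENPA, chr2:26785936-26786055, plus strand: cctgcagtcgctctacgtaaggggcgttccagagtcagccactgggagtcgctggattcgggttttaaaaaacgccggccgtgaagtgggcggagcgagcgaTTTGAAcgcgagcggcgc
CDC20, chr1:43358861-43358980, plus strand: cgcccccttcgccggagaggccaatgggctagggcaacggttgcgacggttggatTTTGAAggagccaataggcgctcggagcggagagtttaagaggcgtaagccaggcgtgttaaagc
MKI67, chr10:128126424-128126543, minus strand: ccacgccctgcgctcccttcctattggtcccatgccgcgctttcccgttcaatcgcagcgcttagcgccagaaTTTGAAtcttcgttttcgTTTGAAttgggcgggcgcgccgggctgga

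The capitals begin at position -170 from the transcript start in KLK3 and at position -176 in KLK2. The 15 bases were identical at 14 positions, and the difference was A1G, counted from the first capital with the base of KLK3 given first. In CENPA and CDC20 the hexamer TTTGAA began at -18 and -65, and MKI67 held 2 copies. Promoter windows ran from 250 bases before to 50 bases after the start and were searched on both strands. The CHR-like letters TTTGAA or TTCGAA were found in 33 of 45 windows of the G2/M list (73.3%), 3 of 32 of the S phase list (9.38%) and 3 of 40 of the androgen-induced list (7.5%), against 16.6% of all 27305 windows. The CCAAT box (CCAAT) was found in 31 of 45 G2/M windows and 23 of 32 S phase windows, against 35.7% of all. The androgen response element hexamer AGAACA was found in 4 of 40 windows of the androgen-induced list, against 14.9% of all (14.85% before rounding). These matches are a description of letters in short windows.

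The first comparison asks which genes still differed with DHT while bicalutamide was present. No single gene passed the test, but 3 neighbouring kallikrein genes and the ion channel gene TRPM8 stood between 1.59 and 2.46 times higher in TPM in BIC.DHT in each pair, and the most strongly androgen-repressed genes stood lower. Of 16636 genes tested with limma and the replicate pair as a block, 0 were called at a Benjamini-Hochberg adjusted p below 0.05 (0% of genes). At an unadjusted p below 0.05 there were 768 (4.62%), 267 higher (1.60%) and 501 lower (3.01%), and 234 without the block. The smallest adjusted p was 0.628. Between BIC.DHT and BIC.VEH, 18.3% of genes were higher in both pairs and 44.8% were lower in both. Counted by all 4 libraries, 6.32% of genes were higher in BIC.DHT with no overlap between the groups, and 22.0% were lower. The median difference over all genes was -0.07 in pair 1 and -0.05 in pair 2 on the log2(TPM + 1) scale, on which every difference below is given.

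The same test without antagonist called 1762 genes higher with DHT (10.6%) and 2797 lower (16.8%). The difference between the responses, (BIC.DHT - BIC.VEH) - (DHT - VEH), was called for 524 genes in which the response under bicalutamide was the more negative (3.15%) and for 539 in which it was the more positive (3.24%). Without the replicate block these counts were 1709 in all for the DHT response and 164 for the difference between the responses. The share of higher calls depended on scaling. Under median-ratio scaling the DHT calls were 2868 higher and 2178 lower, and the calls of the difference 602 higher and 859 lower. Across the 16636 genes, the difference under bicalutamide correlated with that without antagonist at r = 0.345, and these contrasts share no library. The bicalutamide differences of pair 1 and pair 2 correlated at r = 0.150 over all genes and at 0.628 over the 988 genes with a DHT response of at least 1 on the log2 scale. Genes are not independent replicates, and no p is given.

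**Figure D1:**
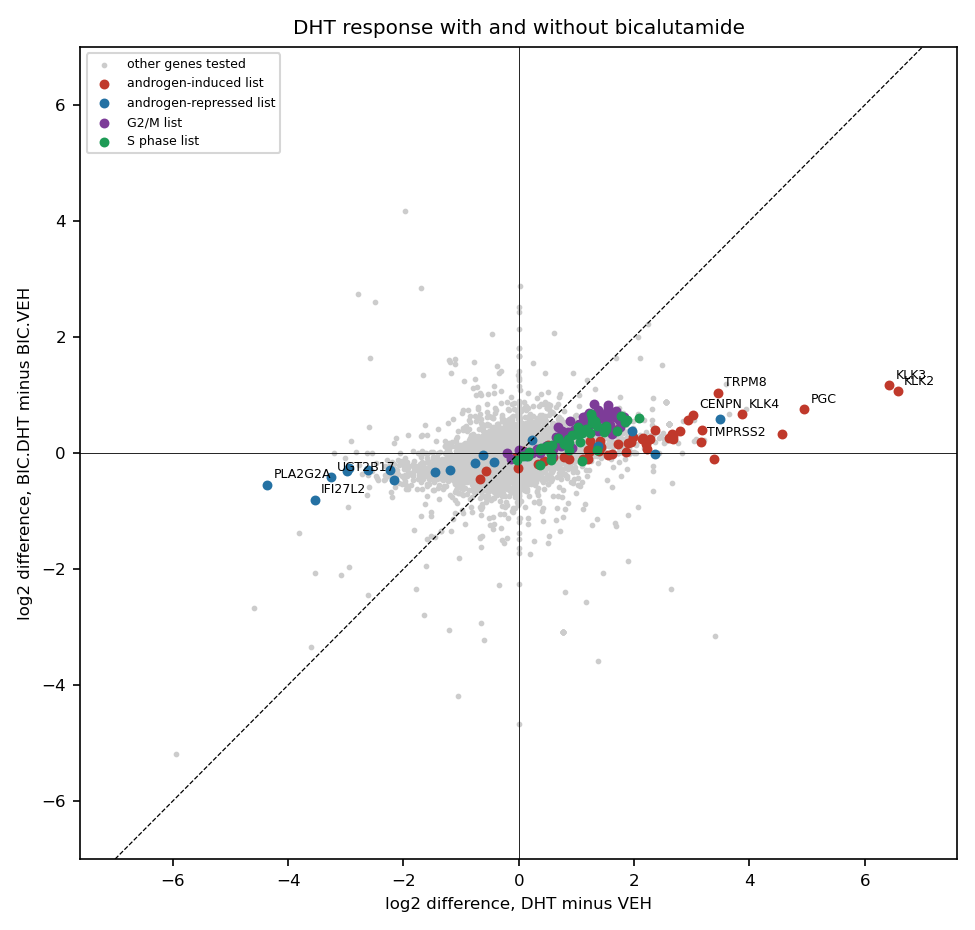
Log2 difference of BIC.DHT against BIC.VEH (vertical axis) plotted against that of DHT against VEH (horizontal axis) for 16636 genes, each the mean of 2 pairs. Colours mark 4 gene lists and the dashed line marks equal responses. KLK3 and KLK2 lie at 6.42 and 6.57 on the horizontal axis and at 1.17 and 1.07 on the vertical axis.

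KLK3 encodes prostate-specific antigen, a secreted protease (chromosome 19, 50854915 to 50860764). It stood at 358 and 206 TPM in BIC.VEH replicates 1 and 2 and at 845 and 445 TPM in BIC.DHT. Both BIC.DHT values were above both BIC.VEH values, and DHT replicates reached 4102 and 2422 TPM against 53.04 and 24.01 TPM in VEH. The difference under bicalutamide was 1.17 (SE 0.32, 95% interval 0.46 to 1.89, limma adjusted p = 0.940), in both pairs. The difference without antagonist was 6.42, and that between the responses, -5.25 (SE 0.46), was called (limma adjusted p = 0.000126). In pair 1 and pair 2, 19.2% and 17.3% of the log2 response to DHT, averaged over both pairs, was left. This share counts only the rise above BIC.VEH, and both BIC.VEH values were themselves above both VEH values.

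KLK2, a protease gene next to KLK3 (chromosome 19, 50873439 to 50880567), stood at 36.2 and 33.7 TPM in BIC.VEH and at 77.9 and 71.07 TPM in BIC.DHT. VEH held 4.78 and 3.60 TPM and DHT 494 and 485 TPM. The difference under bicalutamide was 1.07 (SE 0.41, limma adjusted p = 0.975), or 16.5% and 16.03% of the log2 response in the pairs. KLK2 and KLK3 are similar in sequence, so the authors' estimation may have shared some reads between them. KLK4 (chromosome 19, 50906351 to 50911395) stood at 150 and 112 TPM in BIC.VEH and at 239.18 and 178 TPM in BIC.DHT, a ratio of 1.59 in each pair. Its difference was 0.67 (SE 0.24, limma adjusted p = 0.975), and 17.2% of its log2 response was left in both pairs. All 3 genes showed no overlap between BIC.VEH and BIC.DHT, and for all 3 both BIC.VEH values were above both VEH values.

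TRPM8, a cold-sensing ion channel of prostate epithelium (chromosome 2, 233917373 to 234019522), stood at 7.35 and 6.12 TPM in BIC.VEH and at 14.7 and 15.06 TPM in BIC.DHT. The replicates of each group lay close together, and the difference was 1.04 (SE 0.19, limma adjusted p = 0.648). In the pairs 26.2% and 34.0% of its log2 response was left. CENPN, a kinetochore gene, stood at 18.6 and 23.8 TPM in BIC.VEH and at 27.5 and 41.7 TPM in BIC.DHT, a difference of 0.66 (SE 0.12, limma adjusted p = 0.648). AZGP1, a secreted zinc-binding glycoprotein, stood at 53.9 and 55.04 TPM and at 78.6 and 84.02 TPM, a difference of 0.57. CENPN and AZGP1 were picked for display after their values were seen. Neither passed the test under bicalutamide, and the groups did not overlap for either.

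**Figure D2:**
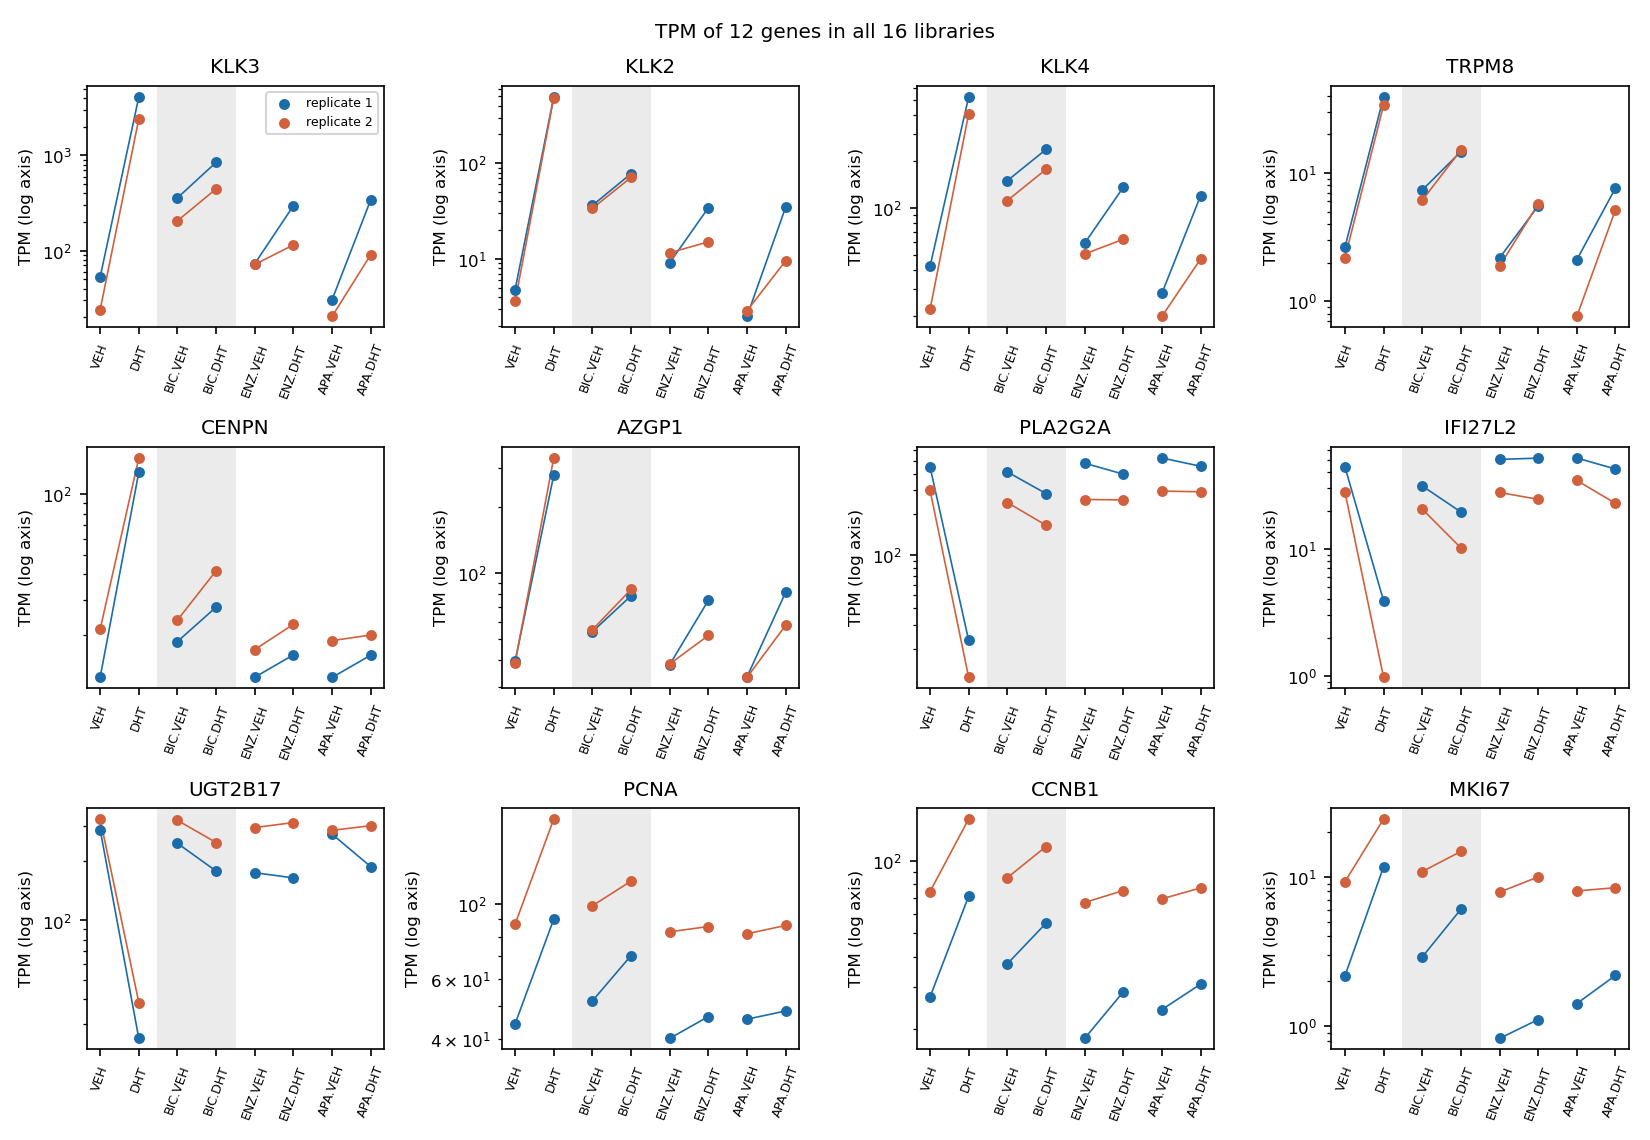
TPM of 12 genes in all 16 libraries on log axes, with 1 panel per gene, groups along the horizontal axis and replicates 1 and 2 in different colours joined within each pair. The shaded band holds the bicalutamide libraries, in which KLK3 runs from 206 TPM in BIC.VEH to 845 TPM in BIC.DHT.

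Other classic targets stood close to BIC.VEH. TMPRSS2, a membrane serine protease, was at 67.8 and 47.3 TPM in BIC.VEH and at 76.1 and 54.6 TPM in BIC.DHT, so that the groups overlapped although each pair was higher. Its difference was 0.18 (SE 0.11, limma adjusted p = 0.975) against 3.15 without antagonist, and 5.23% and 6.47% of the log2 response was left. FKBP5, a co-chaperone of steroid receptors, was at 13.8 and 16.9 TPM and then 16.8 and 20.09 TPM, a difference of 0.25 against 2.68. SLC45A3, a sugar transporter of prostate cells, was at 39.97 and 52.06 TPM and then 49.7 and 63.6 TPM, a difference of 0.30 against 2.67. PMEPA1, an inhibitor of TGF-beta signalling, differed by 0.16 against 2.20, and NDRG1, a stress- and androgen-induced gene, by -0.04 against 1.54. For all 5 the difference between the responses was called, from -2.97 for TMPRSS2 to -1.58 for NDRG1. CAMKK2, a kinase upstream of AMPK, differed by -0.02 under bicalutamide and by 0.15 without antagonist, and neither was called.

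Some genes with a steep DHT response began near 0. PGC, which encodes the protease precursor pepsinogen C, was at 0.62 and 0.64 TPM in BIC.VEH and at 2.00 and 1.55 TPM in BIC.DHT, while DHT held 43.3 and 30.8 TPM. Its difference was 0.76 (SE 0.20, limma adjusted p = 0.940). CHRNA2, a subunit of the nicotinic acetylcholine receptor, was at 1.67 and 1.08 TPM and then at 1.62 and 2.37 TPM, with overlap, while DHT held 30.6 and 32.6 TPM. STEAP4, a metalloreductase, stayed at or below 0.06 TPM in all 4 bicalutamide libraries. The log2(TPM + 1) scale understates differences at such low levels.

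Over the androgen-induced list as a whole, 51 of 52 members were tested, 32 were higher in both pairs, 8 lower in both and 11 of mixed sign. Of all genes, 18.3% were higher in both pairs and 44.8% lower. At an unadjusted limma p below 0.05, 10 members were higher and 0 lower, against 1.60% and 3.01% of all genes. Without overlap 18 were higher and 4 lower, against 6.32% and 22.0% of all genes. The median difference was 0.13 in pair 1 and 0.15 in pair 2, against 1.69 and 1.97 without antagonist. Without antagonist 44 of the 51 were called higher and 0 lower. For 37 of these 44 the response under bicalutamide was called as the lower, against 3.15% of all genes. The 44 were chosen by the DHT and VEH libraries that also enter this test, which favours such calls. Among the members highest under bicalutamide, besides those above, were the keratin gene KRT19 with 0.41, the methyltransferase gene GNMT with 0.39 and the fatty acid elongase gene ELOVL7 with 0.33. The lowest with at least 5 TPM were the metalloreductase STEAP2 with -0.30, from 372 and 329 TPM to 287 and 280 TPM, and APPBP2 with -0.19. Neither was called without antagonist. There STEAP2 differed by -0.58 with DHT (limma adjusted p = 0.0530) and APPBP2 by 0.34 (limma adjusted p = 0.166).

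The genes that androgen represses stood lower with DHT. PLA2G2A, a secreted phospholipase (chromosome 1, 19975431 to 19980434), was at 411 and 244 TPM in BIC.VEH and at 284 and 166 TPM in BIC.DHT. Replicates differed as much as groups, so that the groups overlapped, but the ratio within pairs was 0.691 and 0.679. The difference of -0.54 (SE 0.09) had the smallest limma adjusted p of all genes under bicalutamide, 0.628. Without antagonist PLA2G2A fell from 448 and 301 TPM to 23.1 and 12.3 TPM.

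IFI27L2, an interferon-inducible mitochondrial protein gene (chromosome 14, 94127781 to 94129604), was at 31.2 and 20.5 TPM in BIC.VEH and at 19.5 and 10.2 TPM in BIC.DHT. The groups did not overlap, and the difference was -0.80 (SE 0.16, limma adjusted p = 0.813). UGT2B17, an enzyme that inactivates androgens by glucuronidation and belongs to a family of close copies, was at 246 and 322 TPM and then at 178 and 248 TPM, a difference of -0.42. DDC, the aromatic amino acid decarboxylase, was at 759 and 503 TPM and then at 662 and 404 TPM, a difference of -0.26 (SE 0.07, limma adjusted p = 0.940). BCHE, butyrylcholinesterase, was at 77.7 and 89.7 TPM and then at 62.5 and 71.7 TPM, a difference of -0.31.

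Of 22 listed androgen-repressed genes 19 were tested, and 14 were lower in both pairs, 3 higher in both and 2 mixed. Of all genes, 44.8% were lower in both and 18.3% higher. At an unadjusted limma p below 0.05, 5 were lower and 2 higher, against 3.01% and 1.60% of all genes. The median difference was -0.20 and -0.30 in the pairs, against -1.29 and -1.09 without antagonist. Without antagonist 12 members fell, but ST6GALNAC1, KCNN2, UGT2B11 and UGT2B28 rose, against the name of the list. The sialyltransferase ST6GALNAC1 and the potassium channel KCNN2 were also the 2 members at p below 0.05 on the higher side under bicalutamide, with 0.59 and 0.38.

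**Figure D3:**
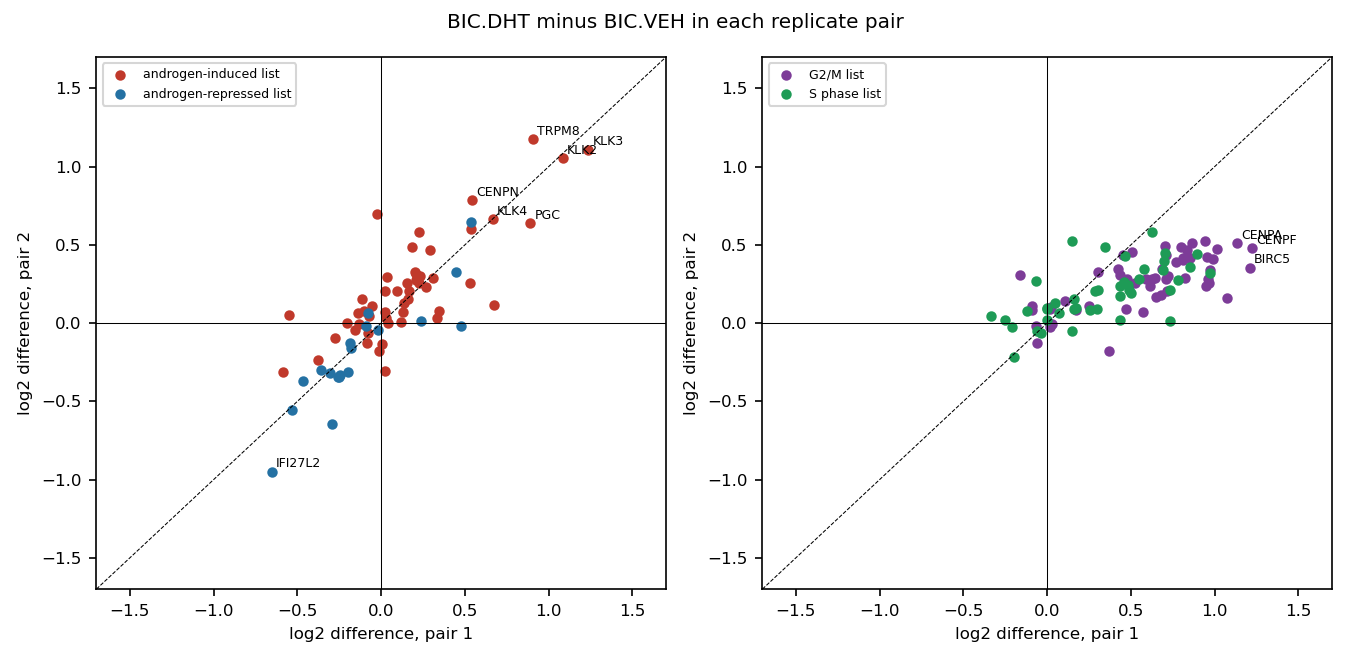
Log2 difference of BIC.DHT against BIC.VEH in pair 1 (horizontal axis) and pair 2 (vertical axis) for the tested members of 4 gene lists, with the dashed line marking equal values. KLK3, KLK2 and TRPM8 lie between 0.91 and 1.24 in both pairs, while 46 of 54 G2/M genes lie to the right of the line.

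Among the lists with at least 5 genes that rose with DHT alone, the genes of mitosis kept the largest share of their response. Of 54 G2/M genes, 46 were higher in BIC.DHT in both pairs, 2 lower in both and 6 mixed. Of all genes, 18.3% were higher in both and 44.8% lower. At an unadjusted limma p below 0.05, 18 were higher and 0 lower, against 1.60% and 3.01% of all genes. The median difference was 0.67 in pair 1 and 0.29 in pair 2, against 1.34 and 1.00 without antagonist, and 46 of the 54 had the larger value in pair 1. Without BIC.DHT replicate 1 the median was 0.25 and without BIC.DHT replicate 2 it was 0.70. Without antagonist 48 members rose and 0 fell. Among these the median share left under bicalutamide, of the log2 response of the same pair, was 49.3% in pair 1 and 30.4% in pair 2. For the 44 androgen-induced genes that rose it was 8.94% and 8.99%. The G2/M list also kept the largest share under enzalutamide (22.2% and 12.8%) and apalutamide (20.7% and 15.2%). The androgen-induced genes there kept -0.55% and 4.86% with enzalutamide and 7.53% and 6.40% with apalutamide. The genes entering these medians were chosen by the same DHT and VEH libraries that form the denominator, and the difference between the lists was not tested.

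For 2 of 54 G2/M genes the response under bicalutamide was called as lower than that without antagonist, against 3.15% of all genes. They were the kinase gene TTK and the chromosomal passenger gene CDCA8. Over the 54 genes the median difference between the responses was -0.63, with a median SE of 0.28. Over the androgen-induced list it was -1.72, with a median SE of 0.24. Summed over the 54 genes, BIC.VEH held 1698 and 2305 TPM, BIC.DHT 1932 and 2655 TPM, VEH 1731 and 2149 TPM and DHT 2536 and 3608 TPM. Replicate 2 stood above replicate 1 in every one of these groups. The groups therefore overlapped for most members. Without overlap 1 gene was higher and 1 lower, against 6.32% and 22.0% of all genes.

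MKI67, which encodes the proliferation antigen Ki-67, was at 2.91 and 10.9 TPM in BIC.VEH and at 6.07 and 14.8 TPM in BIC.DHT. Its difference was 0.63 (SE 0.29, 95% interval -0.02 to 1.28, limma adjusted p = 0.975), and 51.8% and 25.1% of the log2 response, averaged over both pairs, was left. The difference between the responses was -1.02 (95% interval -1.93 to -0.10, limma adjusted p = 0.190) and was not called. CCNB1, the B-type cyclin of mitotic entry, was at 37.3 and 85.2 TPM and then at 55.09 and 115 TPM, a difference of 0.49 (SE 0.16, limma adjusted p = 0.960). CENPA, the centromeric histone H3 variant, was at 1.33 and 6.12 TPM and then at 4.12 and 9.16 TPM, a difference of 0.82 (SE 0.29).

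CENPF, a kinetochore protein, had the largest difference of the list, 0.85 (SE 0.41), from 5.95 and 19.4 TPM to 15.2 and 27.4 TPM. CDC20, the activator of the anaphase-promoting complex, was at 11.4 and 38.5 TPM and then at 23.6 and 51.5 TPM. TACC3, a spindle protein, had the smallest limma adjusted p of the list, 0.813, at 27.9 and 54.6 TPM and then at 46.3 and 66.7 TPM. TOP2A, topoisomerase II alpha, differed by 0.43 (SE 0.36), from 5.44 and 21.6 TPM to 9.31 and 24.7 TPM, and was not called without antagonist either (limma adjusted p = 0.0535). In each of these genes both pairs were higher with DHT, and the TPM of BIC.VEH and BIC.DHT overlapped. Without BIC.DHT replicate 1 the difference was 0.38 for CENPF, 0.49 for CENPA, 0.33 for MKI67 and 0.028 for TOP2A, and without BIC.DHT replicate 2 it was 1.32, 1.16, 0.94 and 0.83. Of the named genes that were examined for overlap, FKBP5, SLC45A3, STEAP4, STEAP2, PMEPA1, APPBP2, KCNN2, CCNB1, CENPF, G2E3, MCM2, PCNA, DTL, TRAM1, ODC1, AMD1, SNHG25, RNY1P16, MIR1307, SAPCD1, LRRC26, P3H2, PTPN4, SSTR5 and ARHGEF26 overlap other annotated genes, as do the readthroughs. Whether reads were counted by strand is not given in the sources used here.

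Genes of DNA synthesis stood between the other lists. Of 43 S phase genes, 31 were higher in BIC.DHT in both pairs, 4 lower in both and 8 mixed. Of all genes, 18.3% were higher in both and 44.8% lower. At an unadjusted limma p below 0.05, 11 were higher and 0 lower, against 1.60% and 3.01% of all genes. The median difference was 0.30 and 0.20 in the pairs against 1.00 and 1.00 without antagonist, and 35.2% and 18.2% of the log2 response was left among the 36 genes that rose with DHT alone. Without BIC.DHT replicate 1 the median was 0.13, and without BIC.DHT replicate 2 it was 0.37. For 9 of the 43 the response was called as lower than without antagonist, against 3.15% of all genes.

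PCNA, the sliding clamp of DNA polymerase, was at 51.8 and 98.5 TPM in BIC.VEH and at 70.3 and 116 TPM in BIC.DHT. Its difference was 0.34 (SE 0.09, limma adjusted p = 0.940), and that between the responses, -0.67, was called (limma adjusted p = 0.0104). MCM2, a subunit of the replicative helicase, was at 15.6 and 31.5 TPM and then at 22.2 and 37.6 TPM, a difference of 0.36 (SE 0.19). CDC6 and DTL, which act in origin licensing and its control, differed by 0.65 and 0.67, by 0.29 and 0.41 without BIC.DHT replicate 1, and by 0.997 and 0.93 without BIC.DHT replicate 2. TYMS, thymidylate synthase, was at 22.6 and 54.5 TPM and then at 37.2 and 72.06 TPM, a difference of 0.55.

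The lists of metabolism and secretion stayed near the median of all genes. Of 31 sterol and lipid synthesis genes tested, 25 rose with DHT alone, with medians of 0.84 and 0.91 in the pairs. Under bicalutamide the medians were 0.04 and 0.06, and 13 were higher in both pairs and 5 lower, against 18.3% and 44.8% of all genes. The response was called as lower for 15, against 3.15% of all genes. EBP, a sterol isomerase, was at 50.7 and 57.8 TPM in BIC.VEH and at 59.2 and 76.04 TPM in BIC.DHT, a difference of 0.30 (SE 0.11). FDPS, the farnesyl diphosphate synthase, was at 98.4 and 116 TPM and then at 120.2 and 141 TPM, a difference of 0.28 (SE 0.08). For both the difference between the responses was called. The sterol reductase TM7SF2 stood lowest of the genes described, with -0.22, and fell by 0.64 with DHT alone.

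Of 37 genes of endoplasmic reticulum translocation, folding and transport, 16 rose with DHT alone, with medians of 0.41 and 0.44. Under bicalutamide 5 were higher in both pairs and 18 lower in both, against 18.3% and 44.8% of all genes. Their medians were -0.13 in pair 1 and within 0.01 of 0 in pair 2. SEC11C, a signal peptidase subunit, was highest with 0.27, and TRAM1, a translocation protein, was lowest with -0.31. Of 11 polyamine genes, 5 rose with DHT alone and for all 5 the response under bicalutamide was called as lower. These 5 were chosen by the DHT and VEH libraries that also enter the test of the difference, which favours such calls. ODC1, ornithine decarboxylase, was at 149 and 221 TPM in BIC.VEH and at 158 and 245 TPM in BIC.DHT, a difference of 0.12. The 20 amino acid stress genes regulated by ATF4 had medians of -0.07 and 0.09, the highest member being the hormone gene STC2 with 0.27. The 83 ribosomal protein genes tested had medians of 0.05 and 0.07, and 60 of them were higher in both pairs, against 18.3% of all genes. The 15 mitochondrial genes had 0.21 and -0.01.

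**Figure D4:**
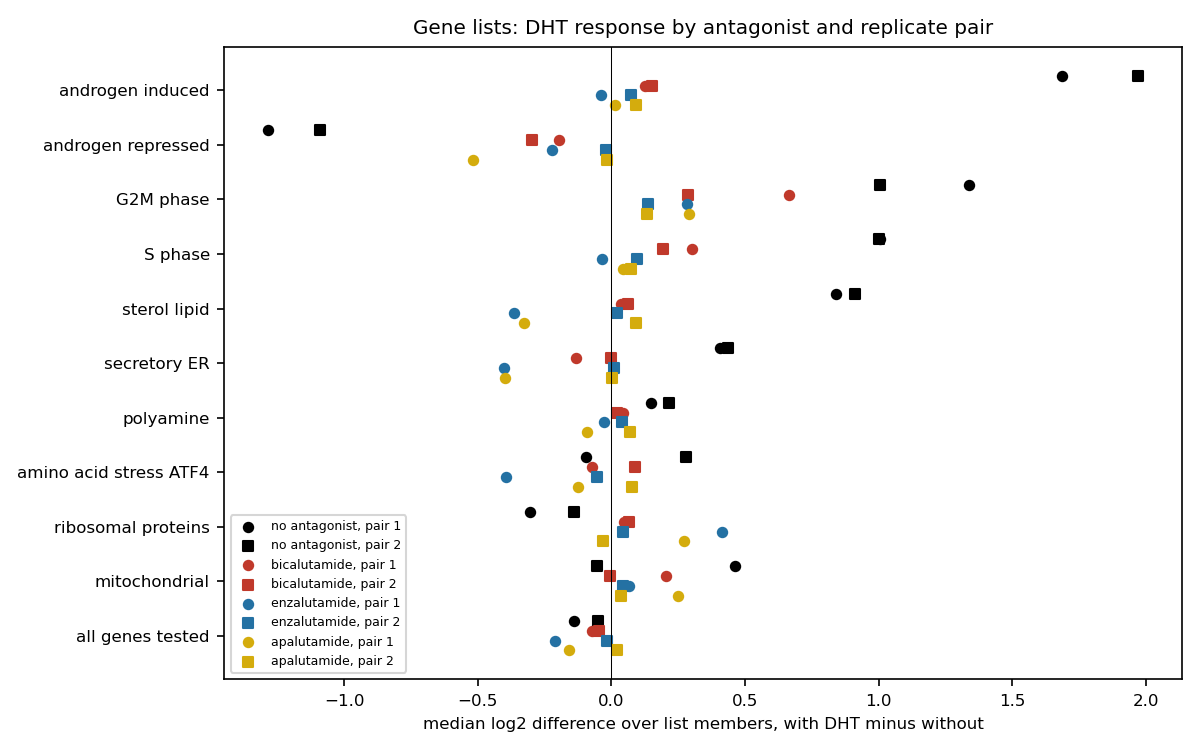
Median log2 difference with DHT against without, over the members of each gene list (rows), for no antagonist, bicalutamide, enzalutamide and apalutamide, with circles for pair 1 and squares for pair 2. Under bicalutamide the G2/M medians lie at 0.67 and 0.29 and the androgen-induced medians at 0.13 and 0.15, while all genes lie at -0.07 and -0.05.

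The largest numerical differences between BIC.DHT and BIC.VEH fell on genes whose estimates are uncertain. Genes with a mean of 5 TPM in either group, no overlap and the same sign in both pairs numbered 3134, of which 598 were higher and 2536 lower. The 6 highest were AC026318.1, XAGE1B, AC004079.3, RNU1-106P, AC087632.2 and KLK3, and the 6 lowest were AC242498.1, RNY1P16, AC211486.7, AL391095.5, MIR1307 and SNHG25. Of these, AC026318.1 was listed at 0 in both BIC.VEH libraries and at 16.98 and 16.9 TPM in BIC.DHT, and AC242498.1 at 34.4 and 36.7 TPM in BIC.VEH and at 0 in BIC.DHT. Because a value of exactly 0 may stand for an estimate that failed, they are given without a fold. SNHG25, a short host gene of a small nucleolar RNA, was at 185 and 114 TPM in BIC.VEH and at 16.8 and 14.04 TPM in BIC.DHT.

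XAGE1B and XAGE1A are near-identical copies of a cancer-testis antigen. XAGE1B was at 0.25 and 1.09 TPM in BIC.VEH and at 10.4 and 11.5 TPM in BIC.DHT, but the sum of both copies was 61.5 and 63.5 TPM and then 70.6 and 69.4 TPM. SMIM11A likewise was at 11.06 and 12.7 TPM and then at 2.34 and 2.31 TPM, while its sum with the copy SMIM11B was 25.3 and 25.2 TPM and then 20.6 and 26.4 TPM.

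Restricted to protein-coding genes above 0 in all 4 libraries, a choice made after the values were seen, 2669 genes met the same rule. The 8 highest were XAGE1B, KLK3, KLK2, TRPM8, ABHD14A-ACY1, ODAM, SAPCD1 and KLK4. Of these, ABHD14A-ACY1 is a readthrough of 2 overlapping genes, and ODAM, a secreted protein of epithelia attached to teeth, was at 3.52 and 3.04 TPM in BIC.VEH, at 5.32 and 7.62 TPM in BIC.DHT and at 3.54 and 3.82 TPM in DHT. The 8 lowest were LRRC26, TGIF2-RAB5IF, P3H2, LTC4S, TCP11L2, IFI27L2, CLDND2 and PTPN4. P3H2, a collagen prolyl hydroxylase, was at 12.9 and 6.30 TPM in BIC.VEH and at 5.68 and 2.71 TPM in BIC.DHT. In the pairs this was 68.9% and 63.9% of its mean log2 response to DHT alone. Ranked by the share in the weaker of both pairs, among genes with a called DHT response of at least 1 and a mean of 5 TPM in VEH or DHT, it was among the first 5, with SMIM11A, AC242498.1, PCSK1N and SSTR5.

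Over the genes called without antagonist with a difference of at least 1, the median share of the log2 response left under bicalutamide was 16.5% in pair 1 and 15.03% in pair 2 for 441 genes higher with DHT (15.8% ± 1.04, SD, n = 2). It was 20.1% and 18.5% for 547 genes lower with DHT (19.3% ± 1.12, SD, n = 2). Of the higher genes, 328 of 441 (74.4%) were higher in both bicalutamide pairs, against 18.3% of all genes. Of the lower genes, 439 of 547 (80.3%) were lower in both, against 44.8% of all genes. More than 50% of the response was left for 17 and 13 genes. The response was called as different for 274 and 324 genes, against 1063 of all 16636. These genes were chosen by the DHT and VEH libraries that also enter this test, which favours such calls. A further estimate took genes with a difference of at least 1 in 1 pair of DHT and VEH, without a test, and divided the median bicalutamide difference of these genes by the median DHT difference in the other pair. This ratio of medians was 19.7% (551 genes) and 16.6% (603 genes) for genes higher with DHT, and 25.1% (815 genes) and 22.3% (680 genes) for genes lower with DHT.

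**Figure D5:**
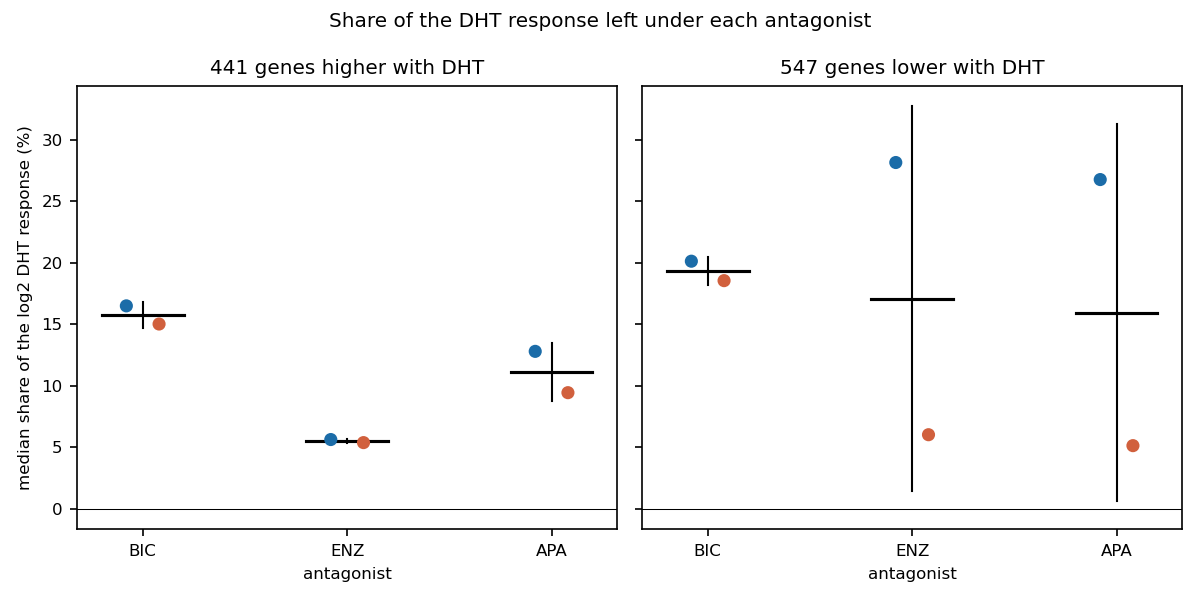
Median share of the log2 DHT response left under each antagonist (vertical axis, %), for 441 genes higher and 547 genes lower with DHT, with pair 1 in blue, pair 2 in orange, the horizontal bar at the mean and the vertical line 1 SD to each side (n = 2). For the higher genes the bicalutamide points lie at 16.5% and 15.03%, those of enzalutamide at 5.64% and 5.39% and those of apalutamide at 12.8% and 9.45%.

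Bicalutamide was set beside enzalutamide and apalutamide at the same dose and time, in 2 pairs of compounds. All 3 carry a trifluoromethyl-substituted benzonitrile or its pyridine counterpart, and enzalutamide and apalutamide carry a thiohydantoin ring where bicalutamide has an open chain with a sulfone. For the 441 higher genes, the share left was 5.64% and 5.39% with enzalutamide and 12.8% and 9.45% with apalutamide, below both bicalutamide values. For the 547 lower genes it was 28.1% and 6.03% with enzalutamide and 26.8% and 5.14% with apalutamide, so that the bicalutamide values lay between their pairs. The median difference over all genes, which these shares do not take out, was -0.21 and -0.02 in the pairs with enzalutamide. It was -0.16 and 0.02 with apalutamide and -0.07 and -0.05 with bicalutamide. All shares rest on the same DHT and VEH libraries, and with 2 pairs the differences were not tested. In ENZ.DHT against ENZ.VEH 1 gene was called (0.00601% of genes), AC008752.1, and in APA.DHT against APA.VEH 4 were called (0.0240%), ARHGEF26, KLK3, RNU5E-1 and TRPM8.

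The response under bicalutamide differed from that under enzalutamide for 0 of 16636 genes (0%) by limma, with 373 at an unadjusted p below 0.05 and 168 without the replicate block. It differed from that under apalutamide for 1 gene (0.00601%), RNU5E-1, a small nuclear RNA listed at 0 in every library but those of APA.VEH, with 406 at an unadjusted p below 0.05 and 166 without the block. KLK3 was at 72.9 and 71.5 TPM in ENZ.VEH and at 296 and 115 TPM in ENZ.DHT, and at 30.4 and 20.4 TPM in APA.VEH and 340 and 90.35 TPM in APA.DHT. Its difference with DHT was 1.34 under enzalutamide and 2.77 under apalutamide. The response under bicalutamide minus that under enzalutamide was -0.17 (95% interval -1.18 to 0.84), and minus that under apalutamide -1.60 (95% interval -2.61 to -0.58, limma adjusted p = 1.0). BIC.VEH held more KLK3 than ENZ.VEH or APA.VEH in both replicates, and BIC.DHT more than ENZ.DHT or APA.DHT.

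TRPM8 was at 2.17 and 1.87 TPM in ENZ.VEH and 5.52 and 5.73 TPM in ENZ.DHT, and at 2.10 and 0.76 TPM in APA.VEH and 7.61 and 5.15 TPM in APA.DHT. Its response under bicalutamide minus that under enzalutamide was -0.10 (95% interval -0.68 to 0.49), and minus that under apalutamide -0.60 (95% interval -1.19 to -0.01, limma adjusted p = 1.0). ARHGEF26, a guanine nucleotide exchange factor, was at 86.98 and 75.8 TPM in BIC.VEH and at 86.8 and 78.9 TPM in BIC.DHT, and at 32.7 and 27.9 TPM in APA.VEH and 59.7 and 48.6 TPM in APA.DHT. The G2/M medians were 0.28 and 0.14 under enzalutamide and 0.29 and 0.13 under apalutamide, beside 0.67 and 0.29 under bicalutamide. The S phase medians were -0.04 and 0.10, and 0.05 and 0.07, beside 0.30 and 0.20. Intervals of this width do not show that the compounds acted alike.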

How the data were processed

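RNA of LNCaP cells was sequenced from stranded poly(A) libraries in 125 bp read pairs, at about 40 M pairs per library per the labels. According to the submitters' processing notes, the tools were FastQC 0.11.9, Trim Galore 0.6.5, STAR 2.7.2b and RSEM 1.3.3 with GRCh38. The deposited values are TPM per gene, as the authors estimated them with RSEM. TPM are scaled to 1 total per library, so the depth behind a value is unknown and no counting interval is given.

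Groups were taken from the labels. Of 60642 genes, 26439 were at 0 in all 16 libraries, and 16636 with at least 1 TPM in at least 2 libraries were tested. TPM were transformed as log2(TPM + 1) with a pseudocount of 1, which understates the change of low genes. All 16 libraries entered 1 limma 3.58.1 fit in R 4.3.3, with 8 group means, the replicate pair as a block, a mean-variance trend and 7 residual degrees of freedom. Benjamini-Hochberg adjustment was made within each contrast over all genes tested, at a threshold of 0.05. With 2 pairs, an exact two-sided permutation test of 1 gene cannot go below p = 0.5, so single values were not tested that way.

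The pairing comes from the number in the library names. Deviations of same-numbered libraries from their group means correlated above 0.1 in 28 of 28 pairs of groups (0.204 to 0.635), and at 0.421 for BIC.DHT and BIC.VEH. The fit was tested on simulated data.

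The libraries, gene lists and named genes were chosen with earlier results of these data known. Named were fixed androgen and cell cycle genes, the 6 highest and 6 lowest genes under bicalutamide with a mean of at least 5 TPM in either group and no overlap, the extremes of the difference between responses, of the share left and of each list, and any gene of a contrast with 5 calls or fewer, and a few genes these rules name are not reported here. For single genes, and for the 441 and 547 genes of the DHT response, each pair's log2 difference under an antagonist was divided by the mean DHT response of both pairs. For the gene lists it was divided by the DHT response of the same pair, so these shares are different measures. All of them start from the vehicle group of the same antagonist, whose level could differ from that of VEH. Alternatives were a pseudocount of 0.1, no filter, a filter of 5 TPM, median-ratio scaling, removal of mitochondrial genes, the fit without the block, a fit of the compared groups only, and leaving out each library. Promoters were taken from RefSeq (GRCh38.p14).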

Additional observations from a re-analysis of the deposited data

Results flagged for a closer look

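The DHT response under bicalutamide differed from that without antagonist for 1063 genes by the limma test of the difference itself, and the groups compared share no library. Among the genes named, the response under bicalutamide minus that without antagonist was -5.50 for KLK2, -5.25 for KLK3, -4.23 for CHRNA2, -4.19 for PGC and -3.21 for KLK4 on the log2(TPM + 1) scale. It was -2.97 for TMPRSS2, -2.43 for FKBP5, -2.42 for TRPM8, -2.37 for SLC45A3, -2.36 for AZGP1, -2.35 for CENPN and -2.04 for PMEPA1. It was -1.58 for NDRG1, -1.20 for STEAP4 and -0.67 for PCNA. In the other direction it was 3.82 for PLA2G2A, 2.84 for UGT2B17 and 2.74 for IFI27L2, where the decrease with DHT was smaller under bicalutamide. With 2 libraries a group, no single library could be examined as standing apart within its group.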

How the results depend on the processing

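With 2 libraries a group, small differences between BIC.DHT and BIC.VEH were not detectable, and leaving out a library leaves a lone one that is assumed to vary like the other groups. Set against each alternative, the number of genes called stayed within 1.5 times in 52 cases, was higher in 12 and lower in 25. The cause of the changes below was not tested, apart from the smaller number of libraries or other genes tested where the setting itself makes it.

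For BIC.DHT against BIC.VEH, 4 genes were called without a filter on low values, all at or below 0.40 TPM (AC092653.2, AC106028.2, EZR-AS1 and RPL29P33), and 0 to 1 when a library was left out, the 1 being without BIC.DHT replicate 2. Without the replicate block the calls were 1709 for DHT against VEH, 1 for apalutamide and 164 for bicalutamide minus no antagonist, all among those made with the block, which changed no other number of adjusted calls by over 1.5 times. For DHT against VEH, leaving out a library gave 2581 to 3021 calls. For enzalutamide there were 0 with a pseudocount of 0.1, 15 without a filter, 0 at 5 TPM, 8 with only the groups compared and 0 to 26 without a library. For apalutamide there were 31 with only the groups compared and 1 to 7 without a library. For bicalutamide minus no antagonist there were 2284 with only the groups compared and 431 to 653 without a library. For bicalutamide minus enzalutamide there were 9 without a filter and 0 to 3 without a library. For bicalutamide minus apalutamide there were 0 with a pseudocount of 0.1, 3 without a filter, 0 at 5 TPM, 0 with only the groups compared, and 1 in every fit without a library.

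The share left is given here from the mean difference of both pairs, and for genes higher with DHT it was 14.9% in the main fit. Without the replicate block, which keeps every log2 difference and called fewer genes, it was 9.19%. It was 16.9% at 5 TPM, 17.4% with median-ratio scaling, 16.9% with only the groups compared and 11.7% to 16.8% without a library. The ratio of medians with genes chosen in the other pair, an alternative added after the data were seen, was 19.7% and 16.6%. For genes lower with DHT the share was 19.3% in the main fit, 15.02% with median-ratio scaling and 17.1% to 21.4% without a library, and that ratio was 25.1% and 22.3%. The androgen-induced median was 0.22 with median-ratio scaling, 0.18 without mitochondrial genes and 0.12 to 0.16 without a library. The androgen-repressed median was -0.16 without a filter, -0.18 with median-ratio scaling and -0.30 to -0.12 without a library, and the S phase median 0.13 to 0.37 without a library.

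For some genes the sign under bicalutamide turned. With median-ratio scaling the difference was 0.032 for NDRG1, 0.054 for CAMKK2, 0.022 for G2E3, 0.0040 for AMD1, 0.034 for MT-RNR1 and 0.045 for MT-RNR2, and without mitochondrial genes it was 0.0088 for CAMKK2. Without a library it ran from -0.11 to 0.029 for NDRG1, -0.060 to 0.030 for CAMKK2, -0.11 to 1.00 for AC004080.15, -0.26 to 0.069 for ANP32E, -0.21 to 0.12 for G2E3, -0.023 to 0.19 for PDIA4, -0.14 to 0.0055 for AMD1, -0.13 to 0.054 for MT-RNR1, -0.10 to 0.043 for MT-RNR2 and -0.0015 to 0.055 for ARHGEF26. Other named genes that moved by over 1.5 times without a library kept their sign, among them MCM2 (0.23 to 0.50), EBP (0.16 to 0.45), SEC11C (0.093 to 0.44), TRAM1 (-0.44 to -0.19), STC2 (0.16 to 0.37), ODC1 (0.024 to 0.21), STEAP2 (-0.45 to -0.16), APPBP2 (-0.35 to -0.022), CHRNA2 (0.074 to 0.60), SAPCD1 (0.036 to 1.34) and LTC4S (-1.34 to -0.61).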
